A study of Mus musculus with 2 samples.

Results

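PD-1 and its 2 ligands were followed across the immune cells of a mouse melanoma, in a KO and a WT library. The 3 genes were taken by symbol: Pdcd1, which encodes the receptor PD-1, Cd274, which encodes PD-L1, and Pdcd1lg2, which encodes PD-L2. They are 3 of the 32285 genes counted in both libraries. Tumours of B16-F0, a transplantable mouse melanoma line, were taken from knockout mice (KO) and from wild-type mice (WT). Living CD45+ leukocytes (DAPI-) were sorted and profiled with the 10x Genomics Chromium 3' v3.1 kit, 1 library per genotype. The labels name neither the deleted gene, nor the strain, age or number of mice, nor whether the deletion was confined to 1 cell type. They call the cells tumour-infiltrating Treg cells, but Foxp3, which defines that lineage, marked 1 cluster among many, and B, NK, monocyte and dendritic cell markers marked others. Tumour cells lack CD45, so the sort was meant to leave them out and PD-L1 of the melanoma itself was not followed. Some melanoma RNA remained: at least 2 of 5 melanoma markers were found in 5.88% of KO and 8.27% of WT macrophage-like cells. The part of such RNA in the Cd274 values was not tested.

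PD-1 is an inhibitory receptor that T cells place on their surface after antigen stimulation. When PD-L1 or PD-L2 binds it, PD-1 recruits phosphatases, chiefly SHP-2, that dampen signalling from the T-cell receptor and CD28. PD-L1 is made by many cell types and is raised by interferon gamma, in part through IRF1, whereas PD-L2 is mostly a product of dendritic cells and macrophages and responds to interleukin 4 and GM-CSF as well. In tumours, cells that keep high PD-1 for long are often exhausted, and blocking this axis is a standard treatment of melanoma.

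Pdcd1 (ENSMUSG00000026285) lies on the minus strand at chr1:94038305-94052553 of GRCm38, the assembly also called mm10. The ligand genes are neighbours on the plus strand of chromosome 19. Cd274 (ENSMUSG00000016496) spans chr19:29367455-29388095 and Pdcd1lg2 (ENSMUSG00000016498) chr19:29410919-29471161, with 22823 bases between them. Each ligand gene overlaps 1 antisense gene in the GENCODE M21 annotation, AC119228.1 and A930007I19Rik. No source used here says whether reads were assigned by strand, so reads of a ligand and of its antisense partner may not have been told apart. The 250 bases before the annotated start of each gene are shown because both ligands were higher in KO in 3 of the same classes (RefSeq, GRCm38.p6, chr1:94052554-94052803 minus strand, chr19:29367188-29367437 and chr19:29410669-29410918 plus strand). Capitals mark every match to 1 of the motifs searched on both strands, and the letters are given in the direction of transcription.
Pdcd1: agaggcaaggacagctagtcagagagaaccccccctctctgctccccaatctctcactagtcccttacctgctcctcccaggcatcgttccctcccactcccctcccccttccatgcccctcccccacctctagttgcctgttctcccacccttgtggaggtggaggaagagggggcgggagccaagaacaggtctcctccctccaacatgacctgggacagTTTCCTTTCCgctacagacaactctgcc
Cd274: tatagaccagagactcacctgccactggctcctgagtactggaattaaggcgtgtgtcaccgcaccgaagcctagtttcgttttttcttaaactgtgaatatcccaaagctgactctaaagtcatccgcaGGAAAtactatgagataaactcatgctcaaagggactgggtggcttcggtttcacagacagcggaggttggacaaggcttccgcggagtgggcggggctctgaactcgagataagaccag
Pdcd1lg2: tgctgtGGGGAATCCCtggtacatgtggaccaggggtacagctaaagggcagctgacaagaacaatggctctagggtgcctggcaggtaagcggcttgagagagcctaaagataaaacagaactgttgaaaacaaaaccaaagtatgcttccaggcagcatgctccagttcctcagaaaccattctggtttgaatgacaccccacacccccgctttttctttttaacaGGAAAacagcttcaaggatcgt

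The motifs were the core of an interferon-stimulated response element (TTTC, any 2 bases, TTTC), a gamma-activated site (TTCNNNGAA), the NFAT core (GGAAA), a degenerate NF-kB site (GGGA, any 4 bases, CC) and an E-box (CACGTG). Pdcd1 held 2 adjoining matches to the NFAT core, at 28 and 23 bases before the start, and each ligand held 1. Of 32817 mouse promoters of this length 55.6% held at least 1 such match, so its presence is common. Pdcd1lg2 alone of the 3 held a match to the NF-kB letters, 244 bases before the start, as did 17.6% of all promoters. The interferon element, the gamma-activated site and the E-box had no match in these windows, against 2.97%, 7.01% and 6.02% of all promoters.

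After filtering, 10116 KO and 10133 WT cells remained, with a median of 5917.5 and 4759 unique molecular identifiers (UMIs, one for each captured RNA molecule). Classes were clusters of both libraries together, named from marker genes with the 3 genes themselves left out of the clustering, and 14 classes had at least 50 cells in each library. The libraries differed in makeup: B-like cells numbered 401 in KO and 3479 in WT, and neutrophil-like cells 35 in KO and 194 in WT. The libraries shared 42 cell barcodes. With 1 library per genotype there was no replicate check, no test was made, and library and genotype cannot be told apart. Levels are UMIs of the gene per 1e6 UMIs of the class (CPM), ratios are log2 of KO over WT, and brackets hold exact 95% intervals that cover counting error only. A gene is called higher or lower when it had at least 50 UMIs over both libraries and differed by at least 1.5-fold, which is a rule of size.

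Pdcd1 RNA lay mostly in T cells, and in CD8-like cells above all. Those cells, marked by Cd8a and Cd8b1, held 75.0% of all Pdcd1 UMIs in KO and 55.2% in WT, while they made up 18.2% and 9.40% of the cells. These shares of UMIs are not corrected for depth. The class took in most cells of a cycling T-cell cluster, which counted 472 KO and 185 WT cells. That cluster had a median of 26678 UMIs, against 4956 in a CD8-like cluster led by Gzmk. In that cycling cluster 69.3% of cells held Cd8a, 23.6% Cd4 and 7.76% Foxp3, so the CD8-like values include cycling cells with Cd4 RNA. Over all kept cells Pdcd1 stood at 71.2 CPM in KO and 30.5 CPM in WT, and at 72.4 and 35.9 CPM with B-like cells left out. A further 7.27% of the Pdcd1 UMIs in KO and 19.9% in WT lay in clusters that were set aside because they held markers of T or B cells together with myeloid markers.

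In KO the level was 189 CPM in CD8-like cells, 128 in Treg-like, 63.8 in CD4 conventional-like, 56.5 in mature DC-like and 54.5 in gamma-delta-like cells. In WT these classes stood at 121, 94.3, 42.8, 51.4 and 60.02 CPM. CD8-like and Treg-like cells led in both libraries, and the intervals of the next 3 classes overlapped one another in each. The gamma-delta-like interval also overlapped the Treg-like one in WT, and by the share of thinned cells with a UMI Treg-like cells ranked first there. Naive T-like cells had 8.71 CPM in KO and 2.20 CPM in WT, but 47.8% of the 23 UMIs in KO came from 1 cell. NK-like cells, at 1.19 CPM in KO and 1.83 in WT, and B-like cells, at 0.652 in KO and 1.07 in WT, were near 0, and neutrophil-like cells held no Pdcd1 UMI in either library (a count of 0 allows a UMI in up to 8.57% of 35 KO and 1.55% of 194 WT cells, which limits cells with a UMI and not cells expressing the gene).

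**Figure D1:**
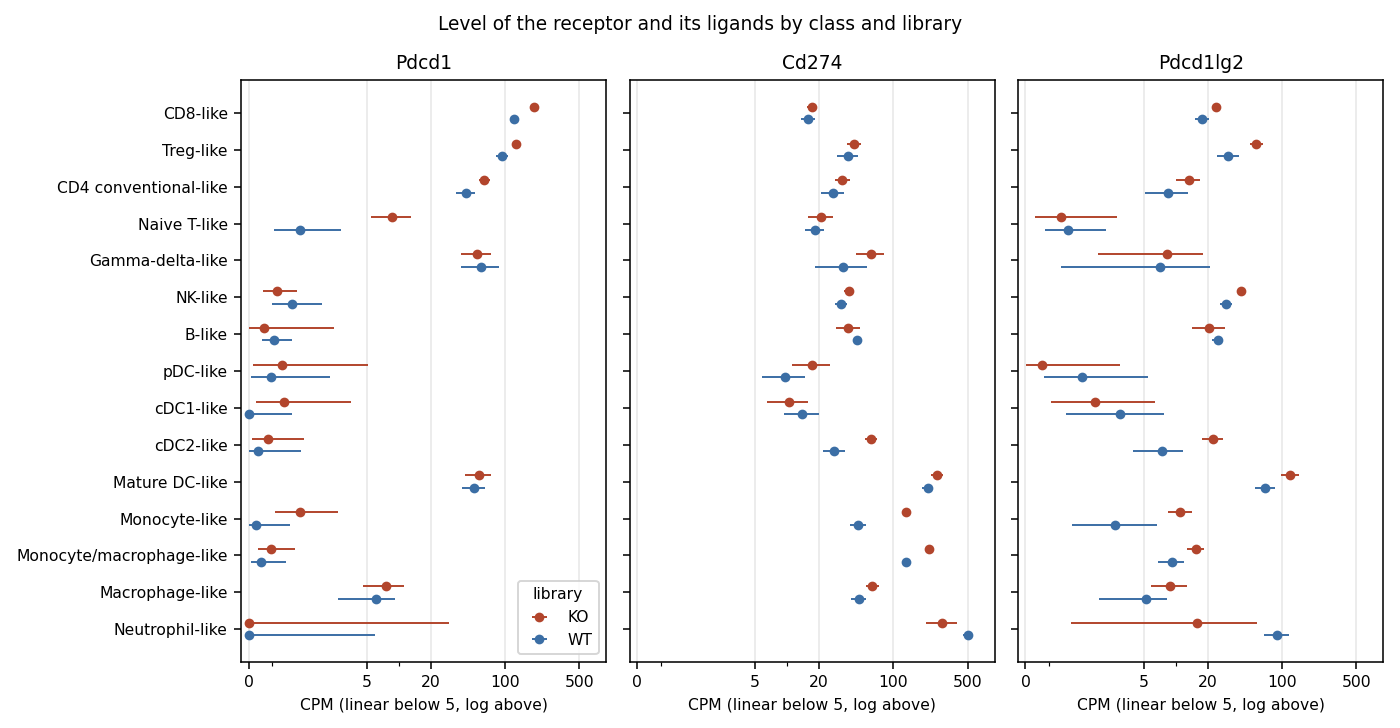
Level of Pdcd1, Cd274 and Pdcd1lg2 in CPM (x axis, linear below 5 and logarithmic above) in each class (y axis). Red points are the KO library and blue points the WT library, and lines are exact Poisson 95% intervals. Pdcd1 peaked in CD8-like cells at 189 CPM in KO and 121 CPM in WT, and Cd274 stood highest in neutrophil-like, mature DC-like and monocyte/macrophage-like cells.

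CD8-like cells carried 4806 Pdcd1 UMIs in 1838 KO cells and 1298 in 952 WT cells. The KO level was 1.57-fold higher [1.48, 1.67], a log2 ratio of 0.65 [0.56, 0.74]. In that class 2.61% of the genes tested were called higher and 5.76% lower. A Pdcd1 UMI was found in 48.9% of KO and 30.8% of WT CD8-like cells. After thinning every cell to 2000 UMIs, which left out 13 KO and 7 WT cells, the shares were 21.6% and 14.3%. In B-like cells, which should lack the gene, they were 0 of the thinned KO cells and 0.205% of the WT cells, and 0.249% and 0.345% before thinning, at a median depth of 3396 UMIs in KO and 3315 in WT against 7464.5 and 6246 in CD8-like cells.

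The CD8-like class was made of clusters that differed in Pdcd1 more than the libraries did. In the cluster led by the metallothioneins Mt1 and Mt2 with the inhibitory receptor genes Lag3 and Havcr2, the level was 290.5 CPM in 395 KO cells and 238 CPM in 147 WT cells, a log2 ratio of 0.29 [0.15, 0.43]. In the cluster led by the granzyme gene Gzmk it was 54.5 CPM in 1000 KO cells and 30.4 CPM in 641 WT cells, a log2 ratio of 0.84 [0.52, 1.17], where 3.05% of genes were called higher. Cycling T cells, which were assigned to the nearest class and were mostly CD8-positive, had 189 CPM in KO and 119 CPM in WT, a log2 ratio of 0.67 [0.54, 0.80], with 2.9% of genes called higher. Each of these clusters had a ratio above 0, but that of the Lag3 and Havcr2 cluster was under the size rule. The Lag3 and Havcr2 cluster and the cycling cells each made up a larger part of the class in KO than in WT, and the Gzmk cluster a smaller part. With the KO clusters weighted as in WT, the CD8-like level in KO was 170.4 CPM and the log2 ratio 0.50, under the rule of 1.5-fold. Markers of other lineages were also present in this class: the summed level of 6 B-cell markers was 38.1 CPM in KO and 101 CPM in WT, and at least 2 of them were found in 1.85% of KO and 6.41% of WT cells. The summed level of 7 NK markers was 489.8 CPM in KO and 891 CPM in WT, with at least 2 in 33.8% of KO and 33.0% of WT cells. That list includes Gzma and Eomes, so the sum need not be NK cell RNA. Eomes was also found in naive T-like cells, at 29.5 CPM in KO and 32.9 CPM in WT. The summed level of 5 melanoma markers was 50.4 CPM in KO and 242 CPM in WT, and that of 4 erythroid markers 1.54 CPM in KO and 348 CPM in WT. The part of RNA of other lineages in the Pdcd1 value was not tested. Without cells that held B or macrophage markers Pdcd1 was at 192 CPM in KO and 119 CPM in WT.

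Treg-like cells, marked by Ikzf2, Ctla4, Tnfrsf4 and Foxp3, had 464 Pdcd1 UMIs in 509 KO cells and 213 in 265 WT cells. That gave 128 CPM in KO and 94.3 CPM in WT, a log2 ratio of 0.44 [0.20, 0.68], which was not past 1.5-fold. In Treg-like cells 3.56% of genes were called higher and 4.66% lower. The value moved with the choice of cells, to 0.70 with no doublets removed, 0.73 under a stricter cell filter and 1.21 when Treg-like cells were instead gated by marker UMIs, Foxp3 among them. Foxp3 itself stood at 52.2 CPM in KO and 167 CPM in WT Treg-like cells. The summed level of the 6 B-cell markers was 144 CPM in KO, with 2 of them at 0, and 607 CPM in WT with none at 0, and 4.13% of KO and 23.0% of WT cells of the class held at least 2 of them. Without cells that held B or macrophage markers the Pdcd1 levels were 130 CPM in KO and 92.6 CPM in WT. CD4 conventional-like cells, marked by Cd4 and Cd40lg, had 63.8 CPM in KO and 42.8 CPM in WT, a log2 ratio of 0.58 [0.24, 0.92], just under the size rule, where 3.84% of genes were called higher and 2.27% lower. After thinning it was 0.10, with 8.79% of KO and 8.70% of WT cells holding a UMI.

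The other classes with enough Pdcd1 to compare did not differ past the rule. Gamma-delta-like cells had 54.5 CPM in KO and 60.02 CPM in WT (log2 ratio -0.14 [-0.90, 0.65]), where 7.36% of genes were called higher and 3.36% lower. Mature DC-like cells had 56.5 CPM in KO and 51.4 CPM in WT, where 7.03% of genes were called higher and 5.27% lower. In that class all 5 T-cell markers were detected, with a summed level of 1160 CPM in KO and 1418 CPM in WT. At least 2 of them were found in 32.3% of KO and 39.4% of WT cells, and 1 cell gave 37.7% of the KO UMIs. With the T-marker cells left out, 7 Pdcd1 UMIs in 44 KO cells and 9 in 43 WT cells remained, or 13.3 and 15.7 CPM. So Pdcd1 passed the size rule in 1 of the 5 classes with at least 50 UMIs, the CD8-like cells. It did not pass there with the KO clusters weighted as in WT.

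CD8-like cells that held Pdcd1 RNA more often held Lag3, Havcr2 and Tox RNA, and less often Tcf7 and Klrg1 RNA. Over the 14 other inhibitory receptor genes, the level in cells with a Pdcd1 UMI over that in cells without had an interval above 0 for 6 genes in KO and 2 in WT, and below 0 for 3 in KO and 1 in WT. Intervals widen with fewer cells, and WT had 135 cells with a Pdcd1 UMI against 394 in KO, so these counts do not compare the libraries. Among CD8-like cells thinned to 2000 UMIs, Lag3, an inhibitory receptor for MHC class II, was found in 28.9% of 394 KO cells with a Pdcd1 UMI and in 11.3% of 1431 KO cells without one. In WT the shares were 34.1% of 135 cells with and 6.42% of 810 cells without. Havcr2, which encodes TIM-3, was at 14.5% with and 5.45% without in KO, and at 11.1% with and 3.70% without in WT. Tox, a nuclear factor of the exhausted state, was at 32.2% with and 14.5% without in KO, and at 25.2% with and 11.5% without in WT. The reverse held for Tcf7, which encodes the factor TCF1 of stem-like T cells, at 6.60% with and 12.4% without in KO and at 9.63% with and 18.9% without in WT. Klrg1, a receptor of short-lived effector cells, was at 2.03% with and 7.20% without in KO and at 5.19% with and 10.9% without in WT. For Ctla4 the shares were 15.7% with and 12.4% without in KO, and 10.4% with and 10.5% without in WT, with overlapping intervals in both. These genes were picked for display after their values were seen, and cells of 1 library are not replicates.

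**Figure D2:**
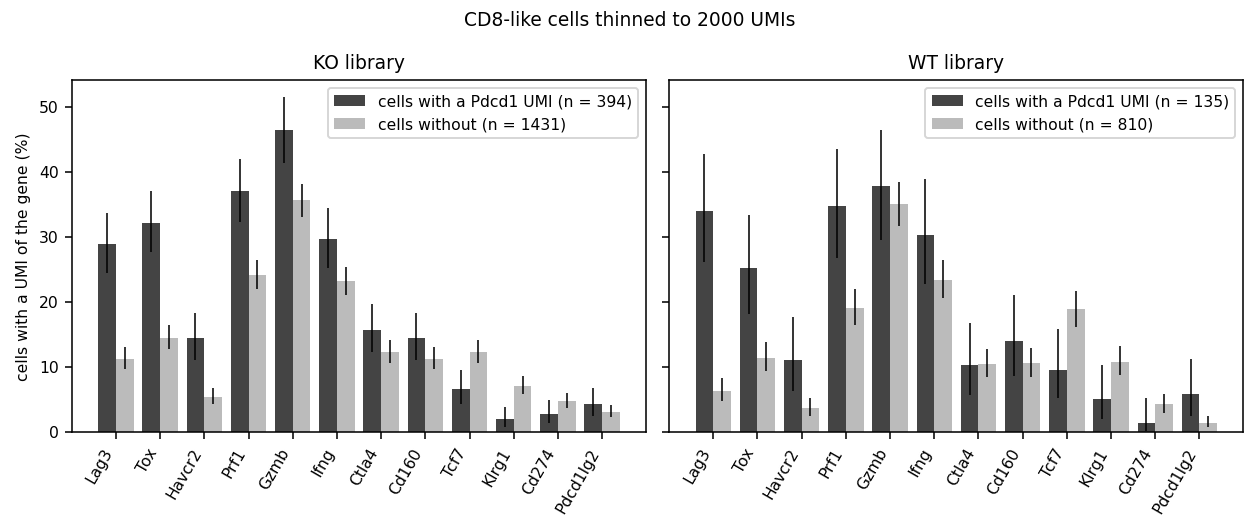
Share of CD8-like cells with a UMI of each gene (y axis, percent), after thinning to 2000 UMIs, in the KO library (left) and the WT library (right). Dark bars are cells with a Pdcd1 UMI and pale bars cells without, and lines are exact Clopper-Pearson 95% intervals. Lag3, Tox, Havcr2 and Prf1 were more frequent in Pdcd1-holding cells of both libraries, and Tcf7 and Klrg1 less frequent.

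Of the 17 genes of the signalling chain below PD-1 measured in CD8-like cells none was past 1.5-fold in either direction, with a list median of -0.09 beside -0.00 over all genes of the class. The same was true of all 17 in Treg-like cells (median -0.04, beside 0.00) and in CD4 conventional-like cells (median 0.02, beside 0.03). In gamma-delta-like cells 1 of 16 was higher, Cd28, the costimulatory receptor that PD-1 signalling targets. There 7.36% of all genes tested were called higher, so 1 gene of such a list is not unusual. Lck, the kinase that starts T-cell receptor signalling, had 284 CPM in KO and 303 CPM in WT CD8-like cells. Lat, its downstream adaptor, had 224 CPM in KO and 258 CPM in WT.

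Of 19 genes that encode factors known to act on the Pdcd1 gene, 0 were higher and 3 lower in KO CD8-like cells, with a list median of -0.24. Of all genes tested in that class 2.61% were called higher and 5.76% lower. Tcf7 had 36.7 CPM in KO and 76.4 CPM in WT (log2 ratio -1.06 [-1.20, -0.92]). Jun, a subunit of AP-1, had 71.6 CPM in KO and 111 CPM in WT (-0.63 [-0.74, -0.53]). Bcl6, a repressor that directs follicular helper fate, was scarce at 2.13 CPM in KO and 3.34 CPM in WT (-0.65 [-1.29, -0.00]). By cluster, 6 of 17 were lower in the Lag3 and Havcr2 cluster (Nfatc2, Nr4a1, Nr4a3, Fos, Jun and Tcf7), where 7.4% of all genes were called lower. In cycling cells 3 of 17 were lower (Fos, Tcf7 and Satb1) and Nr4a1 was higher, with 4.59% of all genes called lower. In the Gzmk cluster none of 17 was past the rule. None of the 16 genes measured was past it in the Treg-like class (median 0.09) or the CD4 conventional-like class (median -0.12). Fos, another AP-1 gene, had 189 CPM in KO and 175 CPM in WT Treg-like cells, and 282 CPM in KO and 404 CPM in WT CD4 conventional-like cells.

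Other inhibitory receptor genes were not called higher in CD8-like cells. Of 14 measured, 0 were higher and 3 lower, and the list median was 0.05. In that class 2.61% of all genes tested were called higher and 5.76% lower, so 0 higher in such a list is not unusual. Lair1, a collagen receptor, had 4.999 CPM in KO and 11.7 CPM in WT (-1.23 [-1.59, -0.86]). Klrg1 had 18.2 CPM in KO and 35.7 CPM in WT (-0.97 [-1.17, -0.77]). Btla, a receptor for HVEM, had 6.30 CPM in KO and 10.0 CPM in WT (-0.67 [-1.03, -0.31]). Lag3, named here after its values were seen, with 116 CPM in KO and 91.1 CPM in WT, had a log2 ratio of 0.35 [0.24, 0.45], under the rule. In Treg-like cells none of 11 was past the rule, and Ctla4, an inhibitory receptor that binds CD80 and CD86, had 485 CPM in KO and 408 CPM in WT. In CD4 conventional-like cells 1 of 8 was higher, Entpd1, the ectoenzyme CD39, at 12.8 CPM in KO and 8.04 CPM in WT with an interval that held 0 (0.68 [-0.10, 1.51]). There 3.84% of all genes were called higher.

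Cd274 RNA was most abundant in myeloid cells in both libraries, and 3 of the 4 calls of a higher level in KO fell in these cells. Monocyte/macrophage-like cells held 29.2% of the Cd274 UMIs in KO and 19.5% in WT, with 7.18% and 4.31% of the cells. B-like cells held 1.07% of the UMIs in KO and 14.6% in WT, with 3.96% and 34.3% of the cells. Over all kept cells the level was 60.2 CPM in KO and 48.8 CPM in WT, a log2 ratio of 0.30 [0.24, 0.36].

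The order of the classes was led by neutrophil-like cells, with 289 CPM in 35 KO cells and 507 CPM in 194 WT cells, too few in KO to compare and with a KO interval that overlapped that of the next class. Mature DC-like cells, marked by Ccr7, Fscn1 and Ccl22, followed with 259 CPM in KO and 210.2 CPM in WT. Monocyte/macrophage-like cells had 218 CPM in KO and 133 CPM in WT. In KO monocyte-like cells came next at 131 CPM, above macrophage-like, cDC2-like and gamma-delta-like cells at 63.3, 62.1 and 61.5 CPM, whose intervals overlapped. In WT the macrophage-like, monocyte-like and B-like cells stood together at 47.4, 46.6 and 45.5 CPM. CD8-like cells were low in both libraries by CPM, at 17.1 CPM in KO and 15.9 CPM in WT. By that measure the class that held most Pdcd1 was among the lowest for its ligand. Counts per cell, not corrected for depth, ranked it higher in KO. There it held 23.7 Cd274 UMIs per 100 cells, below Treg-like (30.5) and above NK-like (19.4), cDC1-like (14.8) and B-like cells (14.5). In WT it held 17.96, below cDC1-like (23.9) and NK-like (18.6) and above B-like cells (15.8). cDC1-like cells, which present tumour antigen to CD8 T cells, were at 10.4 CPM in KO and 13.97 CPM in WT.

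Monocyte-like cells, marked by Ly6c2, Ccr2 and Plac8, had 720 Cd274 UMIs in 642 KO cells and 147 in 332 WT cells. The level was 131 CPM in KO and 46.6 CPM in WT, a log2 ratio of 1.49 [1.23, 1.75], in a class where 5.76% of genes were called higher and 4.93% lower. A UMI was found in 38.5% of KO and 19.6% of WT cells, and in 18.5% of KO and 6.93% of WT cells after thinning, with 5 KO cells left out, at a median depth of 8400 UMIs in KO and 9302 in WT. No class is known to lack Cd274. In cDC1-like cells, among the lowest, the thinned shares were 2.86% in KO and 2.59% in WT, and 12.0% and 12.8% before thinning, at a median depth of 13714 UMIs in KO and 15006 in WT. The makeup of the class differed as well. The cluster led by the interferon-induced chemokine genes Cxcl9 and Cxcl10 counted 292 KO cells and 57 WT cells, and stood at 245 CPM in KO and 149 CPM in WT (log2 ratio 0.72 [0.40, 1.06]). In the cluster led by Dmkn and Chil3 the levels were 46.0 CPM in KO and 45.9 CPM in WT, and in the cluster led by Ace, a gene of patrolling monocytes, 19.5 CPM in KO and 9.03 CPM in WT. With the KO clusters weighted as in WT the monocyte-like level in KO was 69.5 CPM and the log2 ratio 0.58, just under the rule. The ratio was 0.42 with no doublets removed, where the class rested on 90 KO and 61 WT UMIs.

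Monocyte/macrophage-like cells, which carried markers of both types, had 1582 Cd274 UMIs in KO and 734 in WT. The log2 ratio was 0.72 [0.59, 0.85], in a class with 2.18% of genes called higher and 4.89% lower. It was 0.84 with the clusters weighted as in WT. The cluster led by Mmp12, Fabp4, Thbs1 and Arg1 held the highest level of any compared cluster, 445 CPM in 260 KO cells and 228 CPM in 178 WT cells, a log2 ratio of 0.97 [0.81, 1.12] where 4.11% of genes were called higher. The cluster led by the chemokine gene Ccl24 had 77.4 CPM in KO and 54.3 CPM in WT. The cluster led by the heat shock genes Hspa1b and Hspa1a had 163 CPM in KO and 120.1 CPM in WT.

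In cDC2-like cells, marked by Cd209a and Clec10a, Cd274 had 62.1 CPM from 230 UMIs in KO and 27.8 CPM from 70 UMIs in WT, a log2 ratio of 1.16 [0.77, 1.57]. In that class 4.95% of genes were called higher and 2.64% lower. Mature DC-like cells, where the gene was already abundant, had 259 CPM in KO and 210.2 CPM in WT (0.30 [0.05, 0.56]), and 298 CPM in KO and 241 CPM in WT with the T-marker cells left out. Macrophage-like cells, marked by the complement genes C1qa and C1qb, had 63.3 CPM in KO and 47.4 CPM in WT (0.42 [0.11, 0.72]), where 4.57% of genes were called higher and 6.76% lower. Neither was past the rule. Gamma-delta-like cells were called higher on 44 KO and 14 WT UMIs, with an interval that held 0 (0.87 [-0.02, 1.85]).

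Most lymphocyte classes stayed within the rule. NK-like cells had 38.3 CPM in KO and 32.5 CPM in WT (0.24 [-0.00, 0.47]). Treg-like cells had 42.8 CPM in KO and 37.2 CPM in WT, with a sign that changed in 6 of the 10 alternative settings. B-like cells had 37.8 CPM in KO and 45.5 CPM in WT, and among them a cluster led by Scd1, Irs2 and Cd83 stood apart at 210.0 CPM in 17 KO cells and 328 CPM in 255 WT cells. In the Gzmk-led CD8-like cluster Cd274 had 39.4 CPM in KO and 22.1 CPM in WT (0.83 [0.46, 1.23]), whereas in the Lag3 and Havcr2 cluster it had 13.1 CPM in KO and 17.0 CPM in WT (-0.37 [-0.92, 0.20]). A T-cell cluster led by Ifit3, Ifit1 and Isg15, which type I interferon induces, stood highest among T-cell clusters, at 88.1 CPM in KO and 90.8 CPM in WT. Of the 12 classes with at least 50 Cd274 UMIs 4 were called higher and none lower. Of all genes, 2.28% were called higher and 1.54% lower in NK-like cells, 2.6% higher and 3.2% lower in naive T-like cells and 5.39% higher and 7.65% lower in B-like cells.

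**Figure D3:**
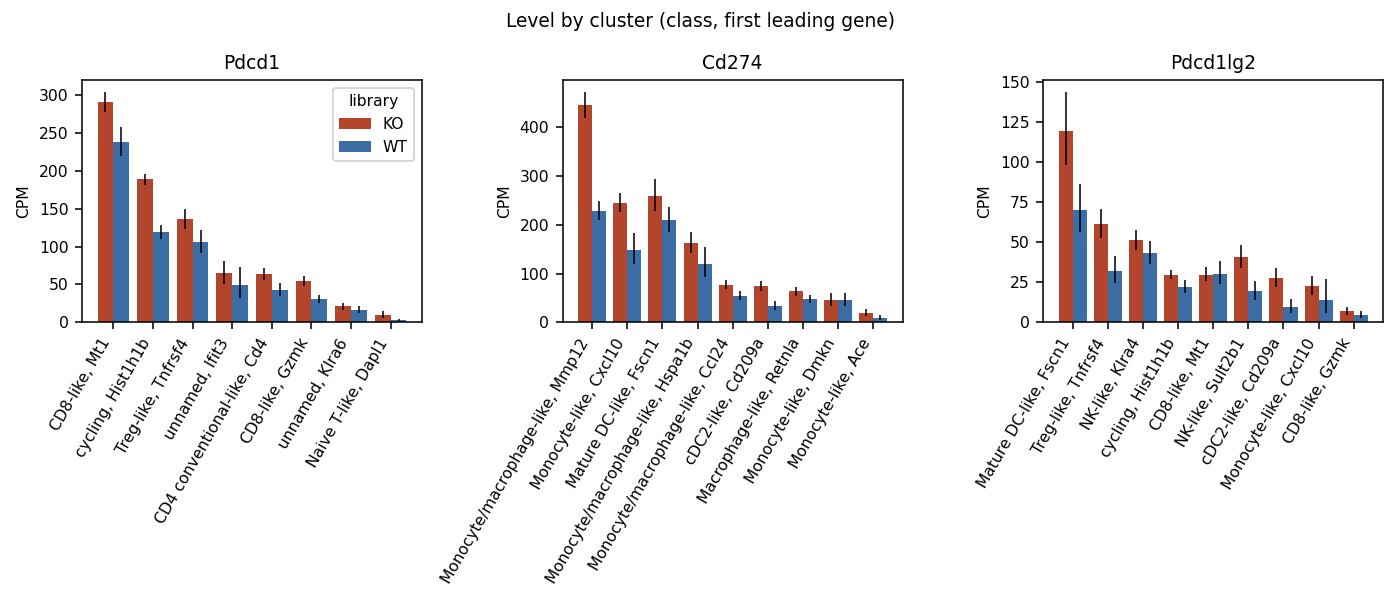
Level in CPM (y axis) of each gene in 8 or 9 clusters of the classes that held it, all with at least 50 cells per library, named by class and first leading gene (x axis). Red bars are the KO library, blue bars the WT library, and lines are exact Poisson 95% intervals. The Mt1-led CD8-like cluster was highest for Pdcd1 and the Mmp12-led monocyte/macrophage-like cluster for Cd274, at 445 CPM in KO and 228 CPM in WT.

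Pdcd1lg2 RNA was found in dendritic, T, NK and B cells and in neutrophils. Mature DC-like cells stood highest among the compared classes, at 119 CPM in KO and 70.1 CPM in WT. Treg-like cells followed at 57.7 CPM in KO and 31.4 CPM in WT, and NK-like cells at 41.7 CPM in KO and 29.99 CPM in WT. CD8-like cells held the largest part of the KO UMIs of this gene, 28.1%, against 14.1% in WT, at 24.2 CPM in KO and 17.7 CPM in WT. B-like cells held 1.46% of the UMIs in KO and the largest part in WT, 22.2%, at 20.9 CPM in KO and 24.9 CPM in WT. Naive T-like, pDC-like and cDC1-like cells were at 1.52, 0.717 and 2.96 CPM in KO and at 1.80, 2.38 and 3.99 CPM in WT. Neutrophil-like cells had 2 UMIs in KO and 55 in WT, or 16.1 and 90.0 CPM.

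In mature DC-like and cDC2-like cells Pdcd1lg2 was higher in KO. Mature DC-like cells had 112 UMIs in 65 KO cells and 90 in 71 WT cells, a log2 ratio of 0.77 [0.36, 1.19]. With the T-marker cells left out the levels were 135 CPM in KO and 95.9 CPM in WT and the log2 ratio 0.49, under the rule. cDC2-like cells had 83 UMIs in KO and 19 in WT, or 22.4 and 7.54 CPM (1.57 [0.84, 2.37]), and 13.8% of KO and 4.98% of WT cells held a UMI, against 0.531% and 1.28% of naive T-like cells. The median depth was 10144 UMIs in KO and 11948 in WT cDC2-like cells, and 6940 in KO and 6778 in WT naive T-like cells. After thinning only 15 KO and 1 WT UMIs were left in cDC2-like cells, so the thinned ratio is not read.

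Among the other myeloid classes the counts were small. Monocyte/macrophage-like cells had 112 UMIs in KO and 51 in WT, or 15.4 and 9.21 CPM (0.74 [0.25, 1.25]). Monocyte-like cells had 61 UMIs in KO and 12 in WT, or 11.1 and 3.81 CPM (1.54 [0.63, 2.57]). The direction in monocyte-like cells did not hold under every setting. The log2 ratio was -0.88 with no doublets removed, on 3 KO and 5 WT UMIs, and -0.35 under the stricter cell filter, on 9 KO and 7 WT UMIs. With clusters weighted as in WT it was 0.39, under the rule.

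Among lymphocytes Pdcd1lg2 was called higher in CD4 conventional-like and Treg-like cells. Treg-like cells had 209 UMIs in KO and 71 in WT, a log2 ratio of 0.88 [0.48, 1.29]. It was 0.69 with cells that held B or macrophage markers left out, 0.44 at a finer clustering and -0.01 in the gate by marker UMIs, where 51 KO and 54 WT UMIs remained. NK-like cells had 456 UMIs in KO and 213 in WT (0.47 [0.24, 0.72]), under the rule in the class. The NK-like cluster led by Sult2b1 and Klra4 was past it, at 40.6 CPM in KO and 19.4 CPM in WT (1.06 [0.56, 1.59]) with 3.5% of genes called higher, and the cluster led by Klra4 and Tyrobp was not, at 51.3 CPM in KO and 43.1 CPM in WT (0.25 [-0.05, 0.56]). CD4 conventional-like cells had 59 UMIs in KO and 20 in WT (0.65 [-0.10, 1.46]). A small T and NK cluster led by the chemokine genes Ccl1 and Xcl1 and by Gzmc had 106 CPM in 96 KO cells and 64.3 CPM in 48 WT cells. Of the 9 classes with at least 50 Pdcd1lg2 UMIs 6 were called higher and none lower, with 2.18% to 7.36% of genes called higher by class.

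**Figure D4:**
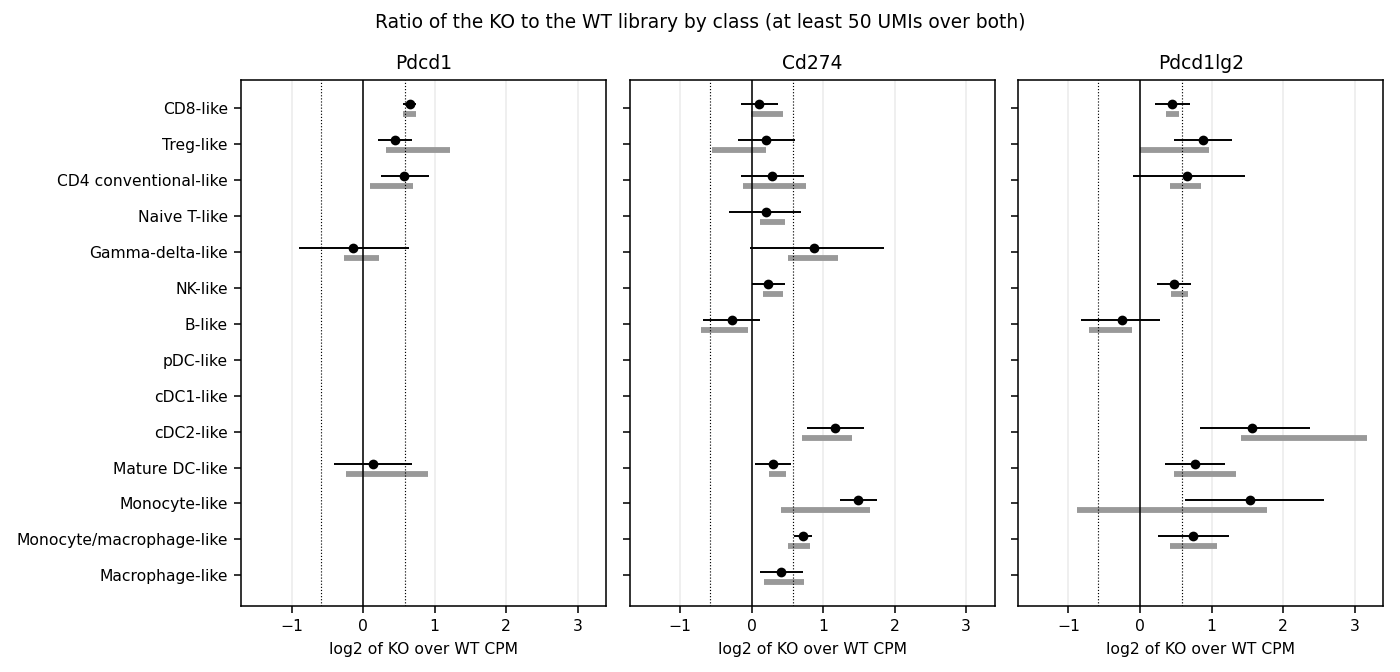
Log2 ratio of KO over WT CPM (x axis) by class (y axis) for genes with at least 50 UMIs over both libraries. Black points carry exact 95% intervals that cover counting error only, grey bars span the alternative settings, and dotted lines mark 1.5-fold. The Cd274 ratio stayed above 0 in monocyte-like, monocyte/macrophage-like and cDC2-like cells under the settings run there, and the Pdcd1lg2 ratio crossed 0 in monocyte-like and Treg-like cells.

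Genes that interferon gamma induces were higher in several KO classes, monocyte-like and cDC2-like cells among them. In monocyte-like cells 13 of 17 measured genes of that list were higher and none lower, with a median of 1.08 beside -0.05 over all genes. Of all genes tested there 5.76% were called higher and 4.93% lower. Cxcl10, a chemokine that draws T cells through CXCR3, had 2258 CPM in KO and 772 CPM in WT (1.55 [1.49, 1.61]), and Cxcl9 had 1153 CPM in KO and 396 CPM in WT (1.54 [1.45, 1.63]). Iigp1, an immunity-related GTPase, had 106 CPM in KO and 14.3 CPM in WT (2.90 [2.46, 3.37]). Nos2, the inducible nitric oxide synthase, had 59 UMIs in KO and 1 in WT. Within the clusters of this class 3 of 14 genes were higher and 1 lower, Cxcl9, in the Ace cluster. In the Chil3 cluster 8 of 15 were higher and in the Cxcl9 and Cxcl10 cluster 3 of 17, with none lower. Of all genes 4.68%, 7.3% and 7.75% were called higher in these clusters. Cxcl9 was called higher in none of them, and the Cxcl9 and Cxcl10 cluster counted 292 KO and 57 WT cells.

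In cDC2-like cells 9 of 16 genes of the list were higher and none lower, with a median of 1.11, where 4.95% of all genes were called higher. Gbp2, a guanylate-binding GTPase, had 193 CPM in KO and 52.0 CPM in WT (1.90 [1.62, 2.18]), Cxcl9 485 CPM in KO and 141 CPM in WT, and Cxcl10 658 CPM in KO and 198 CPM in WT. Monocyte/macrophage-like cells, where Cd274 was higher too, had fewer such genes, 3 of 17, namely Iigp1, Nos2 and Gbp4, with a median of 0.29. In them 2.18% of all genes were called higher. In cDC1-like cells 6 of 15 were higher and Cxcl10 was lower, while Cd274 stood at 10.4 CPM in KO and 13.97 CPM in WT. There 4.99% of genes were called higher and 2.88% lower, and Cxcl9 had 461 CPM in KO and 129 CPM in WT. Mature DC-like cells had 5 of 16 higher and 1 lower, with 7.03% of all genes called higher and 5.27% lower. Macrophage-like cells had 8 of 17 higher and none lower, with 4.57% of all genes called higher and 6.76% lower.

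**Figure D5:**
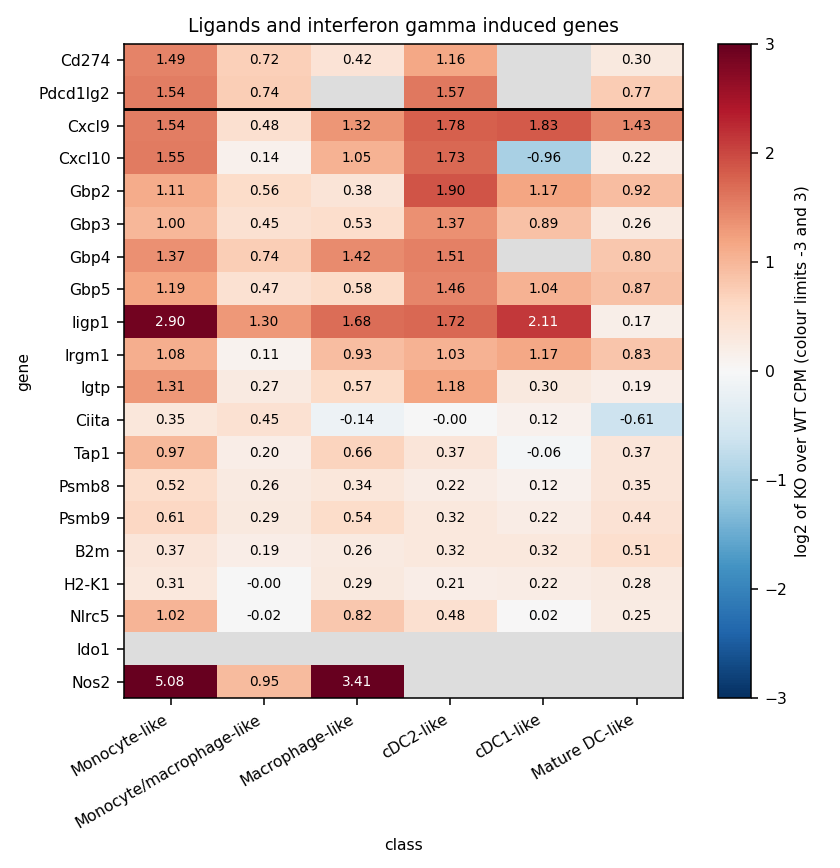
Log2 ratio of KO over WT CPM (colour and printed value) of the 2 ligand genes (above the line) and of the interferon gamma induced genes (below) in 6 myeloid and dendritic classes (columns). Grey cells had fewer than 50 UMIs over both libraries. Monocyte-like and cDC2-like cells had the highest Cd274 ratios, 1.49 and 1.16, and list medians of 1.08 and 1.11.

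The genes of the route from interferon gamma to Cd274 differed in the same direction in some classes. Irf1, the transcription factor that acts on the Cd274 promoter, had 409 CPM in KO and 242 CPM in WT monocyte-like cells (0.76 [0.64, 0.88]) and 214 CPM in KO and 86.9 CPM in WT cDC2-like cells (1.30 [1.08, 1.52]). Socs1, a feedback inhibitor of this route, had 184 CPM in KO and 67.2 CPM in WT monocyte-like cells (1.45 [1.24, 1.67]). Of this list 4 of 11 measured genes were higher in monocyte-like cells, 4 of 11 in cDC1-like, 3 of 11 in cDC2-like and 0 of 11 in monocyte/macrophage-like cells, with none lower in these classes. Of all genes 5.76%, 4.99%, 4.95% and 2.18% were called higher in these classes, in the same order. In macrophage-like cells Irf1 and Socs1 were higher, and Ifng, a product of T and NK cells, had 13.8 CPM in KO and 98.8 CPM in WT. In that class all 5 T-cell markers were detected, with a summed level of 265 CPM in KO and 309 CPM in WT, and at least 2 were found in 25.7% of KO and 26.3% of WT cells. All 7 NK markers were detected too, with a summed level of 1364 CPM in KO and 1318 CPM in WT. At least 2 of them were found in 23.5% of KO and 22.6% of WT cells. This sum did not track the share of cells with NK markers, so it is not read as a measure of NK cell RNA. In monocyte-like cells the sum was 3361 CPM in KO and 3660 CPM in WT, with at least 2 markers in 6.23% and 4.52% of cells. The part of T and NK cell RNA in the Ifng value of macrophage-like cells was not tested.

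Within a library, the levels of interferon gamma induced genes were also set against Cd274 cell by cell. In monocyte-like cells the level in cells with a Cd274 UMI over that in cells without had an interval above 0 for 15 of 18 list genes in KO and for 8 of 17 in WT, and below 0 for none. In monocyte/macrophage-like cells it was above 0 for 6 of 17 in KO and 5 of 17 in WT, and below 0 for 3 in KO and 1 in WT. WT had fewer cells with a Cd274 UMI in both classes, which widens its intervals, so these counts do not compare the libraries. After thinning, Cxcl9 was found in 46.6% of 118 KO cells with a Cd274 UMI and in 19.8% of 519 KO cells without, and in 30.4% of 23 WT cells with and 7.12% of 309 without. Gbp2 was at 79.7% with and 40.8% without in KO, and at 56.5% with and 20.1% without in WT. In monocyte/macrophage-like cells Nos2 was at 14.6% of 212 cells with and 1.98% of 505 without in KO, and at 9.30% of 86 with and 4.34% of 346 without in WT. There Cxcl9 split the cells less, at 17.0% with and 12.9% without in KO and 13.95% with and 10.1% without in WT. These genes, too, were picked after their values were seen.

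Of the genes for partners and stability of the PD-L1 protein few were past the rule. Cd80, which encodes a CD28 ligand that also binds PD-L1 on the same cell, had 22.2 CPM in KO and 12.7 CPM in WT cDC2-like cells (0.80 [0.20, 1.44]) and 86.4 CPM in KO and 40.5 CPM in WT mature DC-like cells (1.09 [0.57, 1.62]). It was 1 of 12 list genes higher in cDC2-like cells, beside Cdk5, which was lower, and 1 of 10 in mature DC-like cells. Of all genes 4.95% were called higher in cDC2-like and 7.03% in mature DC-like cells. Myc was the 1 lower gene of 13 in monocyte/macrophage-like cells, at 14.6 CPM in KO and 23.7 CPM in WT, and none of 12 was past the rule in monocyte-like cells. Cmtm4, a relative of the PD-L1 protecting protein CMTM6, was the 1 lower gene of 12 in macrophage-like cells, at 9.13 CPM in KO and 16.3 CPM in WT. Of all genes 4.89% were called lower in monocyte/macrophage-like and 6.76% in macrophage-like cells.

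None of the 8 genes of the route by which interleukin 4 and GM-CSF act on Pdcd1lg2 was past the rule in cDC2-like cells, nor in monocyte-like or monocyte/macrophage-like cells, where Pdcd1lg2 was. Csf2ra, a chain of the GM-CSF receptor, had 209 CPM in KO and 200.4 CPM in WT cDC2-like cells. In mature DC-like cells Irf4, a factor of dendritic cell maturation, had 34.1 CPM in KO and 21.8 CPM in WT with an interval that held 0 (0.65 [-0.13, 1.43]), and Klf4 was lower at 18.1 CPM in KO and 32.7 CPM in WT. Macrophage-like cells had 2 of 8 higher, Csf2ra at 181 CPM in KO and 116 CPM in WT and Irf4 at 17.6 CPM in KO and 8.13 CPM in WT. There 4.57% of all genes were called higher. Among other B7 and checkpoint ligands, Cd86 had 225 CPM in KO and 135 CPM in WT mature DC-like cells (0.74 [0.44, 1.04]). Icosl, the ligand of the costimulator ICOS, and Lgals9, which encodes the TIM-3 ligand galectin-9, were higher in KO monocyte-like cells, at 18.9 and 169.8 CPM in KO against 8.56 and 112 CPM in WT.

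Across 28 points, the 14 classes in 2 libraries, the genes whose log2(CPM + 1) followed each member most closely were ranked among 8533 genes by Pearson's r, as a description. For Pdcd1 they were Ptpn13, Tnfrsf4, Crmp1, Ctla4 and Cxcr6, with r of 0.94 down to 0.92. For Cd274 they were Klf6, Plgrkt, Pfkfb3, Nfkbia and Rabgef1, with r of 0.87 down to 0.82. Plgrkt, a plasminogen receptor, is the neighbour of Cd274 on the opposite strand (chr19:29348599-29367390), and 64 bases separate the annotated starts of the pair. For Pdcd1lg2 they were Nfat5, Mir155hg, Nfkb2, Bclaf3 and Ssh1, with r of 0.85 down to 0.78. The ligands followed one another at 0.57, Pdcd1 followed Pdcd1lg2 at 0.43 and Cd274 at 0.07. Points of 1 library share its depth and free RNA, and points of 1 class share its cells.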

How the data were processed

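Raw UMI counts of 1 KO and 1 WT library were deposited by gene and barcode. Cell Ranger 5.0.0 is named per the file headers, and Cell Ranger with STAR on mm10 per the submitters' processing notes; the annotation release was not stated. The deposited counts summed to 112544655 UMIs in KO (11398 barcodes) and 98438084 in WT (11432 barcodes).

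Barcodes were kept when they held 500 or more genes, 1000 or more UMIs and no more than 10% mitochondrial UMIs. The expected doublet share (9.12% in KO, 9.15% in WT), taken from the highest Scrublet scores, was removed, since the caller marked 0 cells in KO and 379 in WT. Both libraries were clustered together (scanpy 1.11.5, igraph 0.11.9, 2000 variable genes, 30 components, 15 neighbours, Leiden resolution 1) without the 3 genes, the pathway lists, haemoglobin and most immunoglobulin genes. Clusters were named from marker lists by score (at least 1.2, margin 0.75, 3 markers each in 10% of cells), with thresholds set after the data were seen. Counts were summed per class and scaled to CPM. Intervals are exact Poisson, conditional binomial or Clopper-Pearson. The calculation was tested on simulated data. The genes and lists were chosen with earlier results of these data known.

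Pathway genes were named by a rule: up to 4 per list and class past 1.5-fold with the interval bound farthest from 0, or the 2 most abundant where none was.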

Additional observations from a re-analysis of the deposited data

How the results depend on the processing

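The log2 ratios of KO over WT were recomputed for 26 pairs of gene and class under up to 10 alternative settings, of which 1, leaving out cells with markers of another lineage, was added after seeing the data. Of 256 values 230 moved by less than the counting interval, 23 moved by more, and 3 reversed a called direction. In all 18 values had the other sign, 15 of them in results that were not called. For 4 pairs the gate by marker UMIs gave no value. Pdcd1 in CD8-like cells ranged from 0.56 to 0.74. Pdcd1 in Treg-like cells was 0.70 with no doublets removed, 0.77 with the caller's doublets, 0.73 under the stricter filter and 1.21 in the gate; in CD4 conventional-like cells it was 0.10 after thinning. Cd274 in monocyte-like cells was 0.42 with no doublets removed, 1.21 with the caller's doublets, 1.16 at Leiden resolution 2 and 1.21 in the gate; in monocyte/macrophage-like cells it was 0.51 at resolution 2, and in cDC2-like cells 0.70 in the gate. Pdcd1lg2 in monocyte-like cells was -0.88 with no doublets removed and -0.35 under the stricter filter, on 3 and 9 KO UMIs against 5 and 7 WT UMIs; in Treg-like cells it was 0.44 at resolution 2 and -0.0057 in the gate; after thinning it was 3.18 in cDC2-like and 1.34 in mature DC-like cells, on few UMIs. The cause of these moves was not tested. Genes past the size rule, summed over classes, numbered 9010, against 18534 with at least 20 UMIs and 2119 at 2-fold. By the thinned share of cells CD8-like cells ranked 2 in WT for Pdcd1, behind Treg-like cells. No paired analysis was possible because each genotype has 1 library and no replicate numbers. Depth limits the comparisons: of the 14 classes 9 held under 50 UMIs of Pdcd1, 5 of Pdcd1lg2 and 2 of Cd274.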
